A study of Mus musculus with 6 samples.

Results

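The genes described here encode the enzymes of sterol synthesis and proteins that sense, take up or move sterols, most of them textbook targets of the transcription factor SREBP-2. They were a list of 28 gene symbols, of which 20 encode synthesis enzymes and 8 encode sensing, uptake and transport proteins. Each was read from the transcript row with the highest total count of that gene. All 28 were among the 24445 genes with a row, and all 28 were among the 12023 genes with enough counts to be tested. The list leaves out some enzymes of the pathway, which were not analysed here.

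The study asked how loss of ATP citrate lyase (Acly), the enzyme that makes cytosolic acetyl-CoA from citrate, changes macrophages stimulated with interleukin-4 (IL-4). RNA was sequenced from bone marrow-derived macrophages (BMDMs) of female mice, with 3 libraries per genotype. The AclyM-KO group came from mice of C57Bl/6J background with loxP sites around an *Acly* exon and Cre recombinase under control of *Lyz2*, a gene of myeloid cells, so that *Acly* is deleted in cells of the myeloid lineage. The Ctrl group came from Acly fl/fl littermates, which carry the same floxed gene and are named without Cre. Loss of *Acly* and presence of Cre therefore cannot be told apart in this comparison. Bone marrow cells of both groups were grown for 7 days in L929-conditioned medium and received 100 U/mL IL-4 for 24 h, so the values below compare genotypes within stimulated cells. Replicates are called biological in one place of the study's text and technical replicates of pooled mice in another, so that the p-values measure only the spread between libraries. In bulk RNA, fewer cells that express a gene and less RNA of it per cell cannot be told apart.

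Cholesterol is built from acetyl-CoA. The mevalonate steps join acetyl-CoA units and turn them into isoprenoid units, the squalene and lanosterol steps condense and close these to the first sterol, and the post-lanosterol steps remove methyl groups and shift double bonds until cholesterol is reached. Transcription of these enzymes is driven by SREBP-2, which is held in the endoplasmic reticulum by Scap and the Insig proteins while sterols are plentiful and is cut free when they run low. SREBP-2 acts at sterol regulatory elements together with the factors NF-Y and Sp1. In macrophages, which also take up lipoproteins and dead cells, much of the cholesterol arrives through lysosomes.

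The libraries held 12151975 to 14739689 counts in Ctrl and 14745614 to 15587283 counts in AclyM-KO. The targeted gene *Acly* reached 332, 321 and 350 CPM (counts scaled to the size of each library) in Ctrl and 146, 134 and 136 CPM in AclyM-KO, which was 41.4% of the Ctrl mean (log2 fold change -1.27 ± 0.0533 SE, edgeR adjusted p = 5.22e-10). These counts cover the whole transcript and not only the exon between the loxP sites. The percentage is therefore not the share of intact *Acly* RNA. Macrophage markers summed to 7710 to 8030 CPM in Ctrl and 7410 to 7790 CPM in AclyM-KO, and 1 of the 8 was higher and 3 were lower at an adjusted p under 0.05. Over all 12023 tested genes, 12.4% were called higher and 12.6% lower. The 8 neutrophil markers summed to 16.5 to 18.8 CPM in Ctrl and 24.3 to 26.1 CPM in AclyM-KO, and none was at 0 in all libraries. Only 4 of the 8 had enough counts to be tested, and 2 of these (*S100a8* and *S100a9*) were higher. Dendritic cell markers summed to 5.95 to 7.12 CPM in Ctrl and 6.72 to 7.27 CPM in AclyM-KO. Only 2 of the 8 had enough counts to be tested, and neither was called. Fibroblast markers summed to 0.379 to 1.06 CPM in Ctrl and 1.23 to 2.06 CPM in AclyM-KO, with *Lum* at 0 and all 8 too low to be tested. Lymphocyte markers summed to 2.62 to 3.18 CPM in Ctrl and 1.64 to 2.32 CPM in AclyM-KO, with *Ncr1* at 0. Only *Cd79b* of the 8 had enough counts to be tested, and it was called lower. The part of these other cells in the results below was not tested.

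Promoters are described first, since SREBP-2 acts through them, but they were searched after the expression values were known. RefSeq promoters on the mouse build GRCm38.p6 were matched for 23 of the 28 genes, with 29 transcription starts in all. There was none for *Fdft1*, *Fdps*, *Sqle*, *Npc1* and *Stard4*. The 250 bases before each start were searched on both strands for an SRE-like core, CACNCCAC, for the longer TCACNCCAC that contains it, for the NF-Y motif CCAAT and for the Sp1 motif GGGCGG. The SRE-like core was present in 3 of the 23 genes (*Acat2*, *Hmgcs1* and *Insig1*) against 6.61% of the 9631 tested genes with a promoter, and the longer form in *Hmgcs1* alone against 1.20%. CCAAT was present in 21 of the 23 genes, all but *Acat2* and *Scap*, and in 72.4% of their starts, against 40.5% of tested genes and 33.8% of all 32851 promoters of this length. It was found in 16 of 17 synthesis genes and in 5 of 6 of the others. GGGCGG was present in 21 of the 23 genes against 63.4% of tested genes. A match of letters is not a binding site, and a window without a match says nothing about the factor.

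The following sequences are examples. Of these genes, 5 (*Hmgcs1*, *Acat2*, *Insig1*, *Idi1* and *Cyp51*) were among the 3 largest increases of their groups and 2 (*Insig2* and *Ggps1*) were not called in the same groups. *Lss*, *Hsd17b7*, *Lbr* and *Srebf2* were also among the largest increases of their groups. They had no SRE-like core and are not shown, whereas all 3 genes with the core are. Each is the 250 bases before the start, written 5′ to 3′ on the strand of the gene, from RefSeq promoters on GRCm38.p6. Capitals mark matches to CACNCCAC, CCAAT and GGGCGG or to their reverse complements. They lie at chr13:119690101-119690350 (plus strand, Hmgcs1), chr17:12960726-12960975 (minus strand, Acat2), chr5:28071162-28071411 (plus strand, Insig1), chr13:8885356-8885605 (plus strand, Idi1), chr5:4104698-4104947 (minus strand, Cyp51), chr1:121332590-121332839 (minus strand, Insig2) (1 of 3 starts) and chr13:14063489-14063738 (minus strand, Ggps1).
Hmgcs1: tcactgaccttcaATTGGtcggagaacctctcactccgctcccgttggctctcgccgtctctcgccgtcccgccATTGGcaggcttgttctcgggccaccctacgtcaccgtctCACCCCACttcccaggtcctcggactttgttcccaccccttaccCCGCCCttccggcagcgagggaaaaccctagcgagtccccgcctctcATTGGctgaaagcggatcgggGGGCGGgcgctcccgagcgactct
Acat2: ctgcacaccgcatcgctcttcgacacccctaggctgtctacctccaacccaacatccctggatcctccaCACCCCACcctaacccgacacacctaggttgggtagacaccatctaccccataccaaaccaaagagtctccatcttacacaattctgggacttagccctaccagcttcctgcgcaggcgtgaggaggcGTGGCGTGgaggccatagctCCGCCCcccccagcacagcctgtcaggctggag
Insig1: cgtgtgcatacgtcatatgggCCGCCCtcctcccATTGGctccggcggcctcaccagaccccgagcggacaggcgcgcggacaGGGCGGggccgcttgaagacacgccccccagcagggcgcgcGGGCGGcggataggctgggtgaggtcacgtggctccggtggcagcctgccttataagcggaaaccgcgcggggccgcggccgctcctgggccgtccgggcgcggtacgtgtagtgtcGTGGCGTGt
Idi1: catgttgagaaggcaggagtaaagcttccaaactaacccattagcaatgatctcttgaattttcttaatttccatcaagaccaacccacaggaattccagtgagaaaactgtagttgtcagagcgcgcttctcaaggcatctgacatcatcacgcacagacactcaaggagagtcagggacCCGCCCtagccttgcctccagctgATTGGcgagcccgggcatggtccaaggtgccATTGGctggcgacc
Cyp51: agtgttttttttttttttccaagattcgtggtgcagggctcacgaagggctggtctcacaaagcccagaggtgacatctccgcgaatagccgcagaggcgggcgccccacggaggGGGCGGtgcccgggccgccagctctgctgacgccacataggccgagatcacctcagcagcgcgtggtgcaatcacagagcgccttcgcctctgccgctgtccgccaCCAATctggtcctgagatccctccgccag
Insig2: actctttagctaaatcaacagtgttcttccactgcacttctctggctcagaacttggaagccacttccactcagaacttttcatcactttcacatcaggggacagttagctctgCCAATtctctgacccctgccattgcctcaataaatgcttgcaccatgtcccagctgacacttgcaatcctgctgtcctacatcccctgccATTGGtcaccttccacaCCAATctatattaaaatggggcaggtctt
Ggps1: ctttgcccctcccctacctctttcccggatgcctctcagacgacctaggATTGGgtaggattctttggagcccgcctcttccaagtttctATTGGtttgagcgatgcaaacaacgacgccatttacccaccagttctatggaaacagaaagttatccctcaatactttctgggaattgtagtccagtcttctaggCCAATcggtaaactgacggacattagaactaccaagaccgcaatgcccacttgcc
In *Hmgcs1* the SRE-like core began 136 bases before the start and is preceded by the T of the longer motif (in lower case here). It was flanked by CCAAT matches that began 176 and 45 bases before the start, and a further match began 237 bases before the start. *Acat2* held the core on both strands, beginning 181 and 53 bases before the start, with no CCAAT. In *Insig1* the core lay on the opposite strand and began 9 bases before the start. *Idi1*, with the largest fold change of all members, had CCAAT matches that began 45 and 14 bases before the start and no SRE-like core. *Ggps1* and the *Insig2* start shown each held CCAAT 3 times and neither core nor Sp1 motif.

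Sterol synthesis genes were higher in AclyM-KO than in Ctrl macrophages at nearly all the steps listed. In the edgeR quasi-likelihood test, 22 of the 28 genes were higher at an adjusted p under 0.05 and 0 were lower, while 12.4% of all 12023 tested genes were called higher and 12.6% lower. Of these, 12 also exceeded a log2 fold change of 0.58, against 2.98% of tested genes, and 5 passed when the test was made against that limit itself. In the same 22 genes every AclyM-KO library lay above every Ctrl library, against 20.5% of tested genes. The increases ranged from 1.16 times (*Srebf2*) to 2.43 times (*Idi1*) the Ctrl mean, so they were moderate in size. Of all tested genes ranked by p-value, 9 of the first 100 were in the list, led by *Insig1* at rank 10 and *Cyp51* at rank 11.

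Synthesis genes and the other members were counted separately, and the difference between both groups of genes was not tested. Of 20 synthesis genes, 19 were higher, with a median log2 fold change of 0.66 and a range of -0.04 to 1.28. Of 8 sensing, uptake and transport genes, 3 (*Srebf2*, *Insig1* and *Stard4*) were higher, with a median of -0.01. The median over all tested genes was 0.001. Summed over the 20 synthesis genes, Ctrl libraries held 2430 ± 77.7 CPM and AclyM-KO libraries 3660 ± 35 CPM (SD, n = 3 each), a ratio of 1.51. The 8 other genes summed to 2930 ± 107 and 3090 ± 55.5 CPM, a ratio of 1.06. The largest parts of this sum were *Npc2* and *Npc1*, at 1400 and 807 CPM in Ctrl. Taken apart, the 4 sensing genes summed to 558 ± 15.8 and 755 ± 7.36 CPM (ratio 1.35). The 4 uptake and transport genes summed to 2370 ± 92.2 and 2330 ± 48.8 CPM (ratio 0.985).

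**Figure D1:**
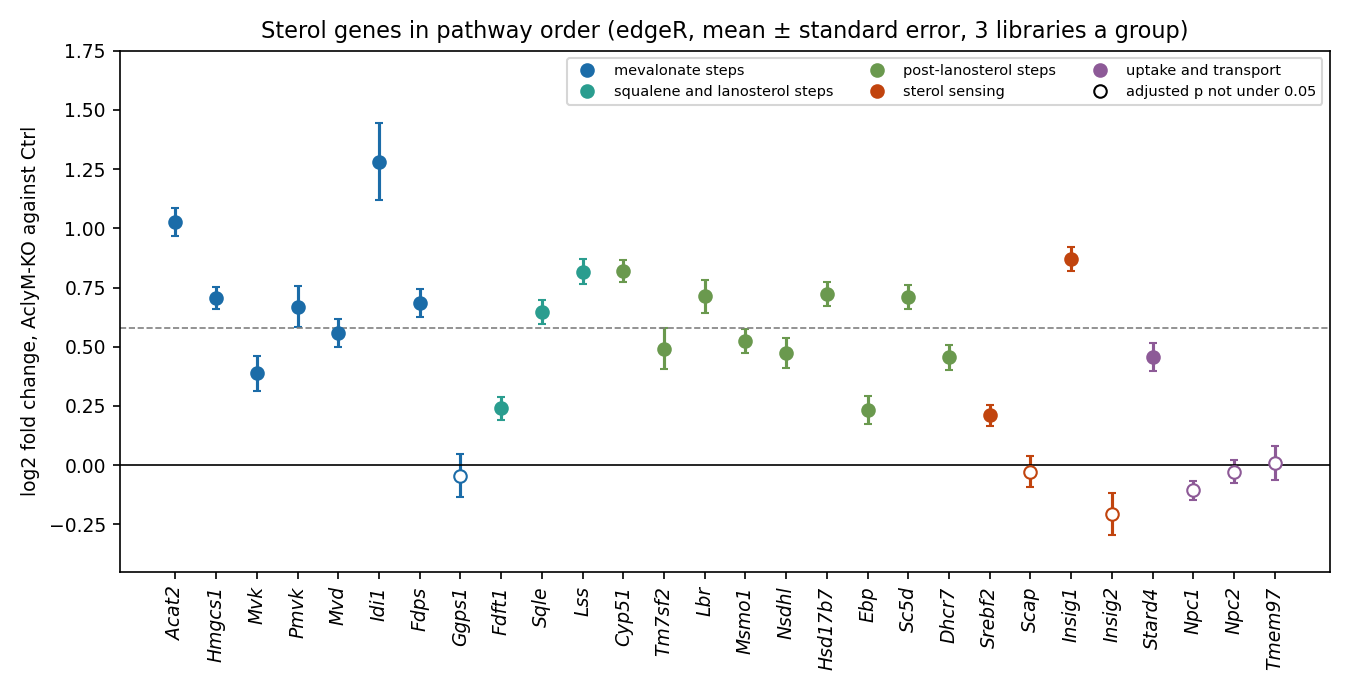
The log2 fold change of AclyM-KO against Ctrl (vertical axis, edgeR, bars show ± 1 standard error, 3 libraries a group) for each of the 28 genes in pathway order (horizontal axis), coloured by group, with open points for genes not called and a dashed line at 0.58. The filled points run from 0.21 (*Srebf2*) to 1.28 (*Idi1*), and the open points, among them *Ggps1*, *Scap* and *Npc1*, lie between -0.21 and 0.01.

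Of the 8 genes of the mevalonate steps, 7 were higher and 5 of these exceeded the fold limit, with a median log2 fold change of 0.68. Acetyl-CoA enters here through *Acat2* (chr17:12942890-12960747), a cytosolic thiolase that joins acetyl-CoA units. *Acat2* was at 29.7, 28.8 and 31.6 CPM in Ctrl and at 60.4, 62.1 and 61.0 CPM in AclyM-KO. Its lowest AclyM-KO library was 1.91 times its highest Ctrl library, and the log2 fold change was 1.03 ± 0.0610 (adjusted p = 2.17e-08, edgeR). *Hmgcs1* (chr13:119690379-119708260) encodes the synthase that adds the next acetyl-CoA. It reached 473, 506 and 522 CPM in Ctrl and 822, 825 and 799 CPM in AclyM-KO, without overlap, for a log2 fold change of 0.70 ± 0.0454 (adjusted p = 4.98e-08, edgeR).

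The kinases and the decarboxylase that follow rose by 0.39 to 0.67 on the log2 scale. Mevalonate kinase, *Mvk* (chr5:114444269-114460591), was at 27.2, 25.4 and 26.8 CPM in Ctrl and 34.5, 32.6 and 36.9 CPM in AclyM-KO (log2 fold change 0.39, adjusted p = 0.00139, edgeR). Phosphomevalonate kinase, *Pmvk* (chr3:89454541-89469013), was at 20.0, 18.1 and 20.9 CPM in Ctrl and 28.5, 31.6 and 33.9 CPM in AclyM-KO (0.67, adjusted p = 5.33e-05, edgeR). The diphosphomevalonate decarboxylase *Mvd* (chr8:122433601-122443422) was at 121, 102 and 109 CPM in Ctrl and 163, 157 and 169 CPM in AclyM-KO (0.56, adjusted p = 8.17e-06, edgeR). Groups did not overlap in any of these genes, and *Mvd* stopped just short of the fold limit.

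Isopentenyl diphosphate isomerase, *Idi1* (chr13:8885501-8892451), which interconverts the isoprenoid building blocks, showed the largest fold change on the lowest counts. Ctrl libraries held 44, 37 and 49 counts (2.97, 3.03 and 3.72 CPM) and AclyM-KO libraries 116, 123 and 114 counts (7.91, 7.91 and 7.81 CPM). The groups were far apart, and the log2 fold change of 1.28 had the largest standard error of the list (0.161, adjusted p = 3.58e-05, edgeR). Farnesyl diphosphate synthase, *Fdps* (chr3:89093588-89101959), whose product feeds both sterols and other isoprenoids, rose from 77.1, 67.5 and 72.3 CPM to 114, 122 and 112 CPM (0.68, adjusted p = 7.16e-07, edgeR). *Ggps1* (chr13:14050659-14063488), the synthase that takes farnesyl diphosphate away from sterols toward geranylgeranyl groups, was the only synthesis gene in the list that was not called. It was at 21.1, 23.1 and 22.5 CPM in Ctrl and 19.3, 21.4 and 23.9 CPM in AclyM-KO, so that the groups overlapped (log2 fold change -0.04, 95% interval -0.24 to 0.15, adjusted p = 0.768, edgeR).

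All 3 genes of the squalene and lanosterol steps were higher (median log2 fold change 0.65), with log2 fold changes from 0.24 to 0.82. Squalene synthase, *Fdft1* (chr14:63145150-63179578), which commits farnesyl diphosphate to sterols, was at 401, 366 and 399 CPM in Ctrl and 451, 455 and 472 CPM in AclyM-KO. This was one of the smaller increases (0.24 ± 0.0482, adjusted p = 0.00192, edgeR). Squalene epoxidase, *Sqle* (chr15:59315077-59331192), was at 219, 225 and 245 CPM in Ctrl and 362, 367 and 350 CPM in AclyM-KO (0.65 ± 0.0514, adjusted p = 3.44e-07, edgeR). Lanosterol synthase, *Lss* (chr10:76531588-76557138), which closes the rings, was at 99.8, 95.3 and 101 CPM in Ctrl and 175, 166 and 182 CPM in AclyM-KO (0.82 ± 0.0526, adjusted p = 4.98e-08, edgeR). *Fdft1* shares 20.9% of its exonic bases with *Ctsb* on the other strand, and the counting did not separate strands. *Ctsb* was at 21700 CPM in Ctrl, so the *Fdft1* values can hold reads of *Ctsb*. With this limit, the ratio of *Sqle* to *Fdft1* counts was 0.546, 0.615 and 0.613 in Ctrl and 0.803, 0.806 and 0.743 in AclyM-KO, with no overlap. The exact two-sided permutation test on these ratios gave p = 0.10, the smallest that 3 against 3 libraries allow.

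All 9 genes of the post-lanosterol steps were higher, with a median log2 fold change of 0.53 and 4 of them past the fold limit. *Cyp51* (chr5:4081145-4104746), the demethylase that opens this stretch, was at 210, 197 and 211 CPM in Ctrl and at 364, 359 and 369 CPM in AclyM-KO. It had the smallest adjusted p of the synthesis genes (log2 fold change 0.82 ± 0.0475, adjusted p = 1.88e-08, edgeR). The reduction after *Cyp51* can be made by the product of *Tm7sf2* (chr19:6062821-6068373) or by *Lbr* (chr1:181815335-181843046), the lamin B receptor of the nuclear envelope. *Tm7sf2* was at 21.4, 19 and 22 CPM in Ctrl and 31.3, 29.6 and 26.9 CPM in AclyM-KO (0.49, adjusted p = 6.87e-04, edgeR). *Lbr* was at 24.1, 25.8 and 27.3 CPM in Ctrl and 41.6, 42.7 and 42.1 CPM in AclyM-KO (0.71, adjusted p = 3.11e-06, edgeR). Both reductase genes rose, and their count ratio, *Tm7sf2* over *Lbr*, was 0.81 ± 0.0758 in Ctrl and 0.695 ± 0.0562 in AclyM-KO (SD, n = 3), which overlapped between groups (exact two-sided permutation p = 0.20).

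The enzymes that remove the methyl groups at carbon 4 act as a complex of an oxidase, a dehydrogenase and a reductase. The oxidase *Msmo1* (chr8:64718139-64733792) was at 295, 282 and 317 CPM in Ctrl and 420, 425 and 443 CPM in AclyM-KO (log2 fold change 0.52, adjusted p = 2.79e-06, edgeR). The dehydrogenase *Nsdhl* (chrX:72918557-72958514) was at 59.6, 60.3 and 55.9 CPM in Ctrl and 79.1, 76.2 and 88.7 CPM in AclyM-KO (0.47, adjusted p = 5.98e-05, edgeR). The reductase *Hsd17b7* (chr1:169949535-169969241) was at 51.6, 52.3 and 51.8 CPM in Ctrl and 83.1, 87.4 and 86.5 CPM in AclyM-KO (0.72, adjusted p = 1.52e-07, edgeR). All 3 rose without overlap, and the Ctrl libraries of *Hsd17b7* agreed most closely of all members, with a coefficient of variation of 0.692%.

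The last enzymes rearrange and reduce the double bonds. *Ebp* (chrX:8185329-8193512), the sterol isomerase, was at 62.3, 59.3 and 55.3 CPM in Ctrl and 66.3, 73.2 and 68.4 CPM in AclyM-KO, the narrowest gap of the called genes. Its lowest AclyM-KO library was 1.06 times its highest Ctrl library (log2 fold change 0.23 ± 0.0600, adjusted p = 0.0104, edgeR), and the call was lost without AclyM-KO replicate 2 (0.19) or without Ctrl replicate 3 (0.18). *Sc5d* (chr9:42251595-42264256), the desaturase, was at 120, 112 and 119 CPM in Ctrl and 189, 186 and 201 CPM in AclyM-KO (0.71, adjusted p = 1.78e-07, edgeR). *Dhcr7* (chr7:143823145-143848410), which reduces the immediate precursor to cholesterol, was at 94.5, 87.3 and 97.1 CPM in Ctrl and 124, 129 and 130 CPM in AclyM-KO (0.45, adjusted p = 1.81e-05, edgeR). Both stood clear of the Ctrl range.

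**Figure D2:**
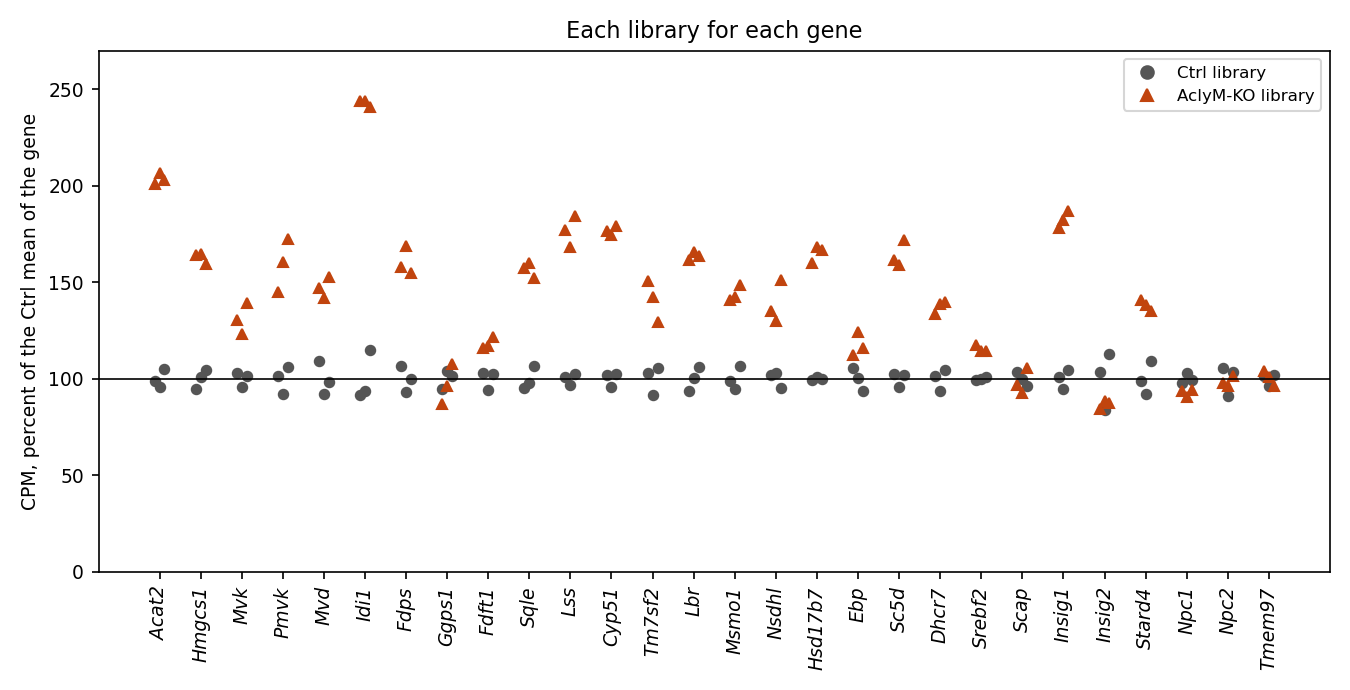
CPM of each library as a percent of the Ctrl mean of the gene (vertical axis) for the 28 genes in pathway order (horizontal axis), with circles for the 3 Ctrl and triangles for the 3 AclyM-KO libraries. Triangles lie above all circles in 22 genes, overlap them in *Ggps1*, *Scap*, *Insig2*, *Npc2* and *Tmem97*, and lie below them in *Npc1*.

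Of the 4 sterol sensing genes, 2 were higher and 2 were not called, with a median log2 fold change of 0.09. *Srebf2* (chr15:82147181-82205379), which encodes SREBP-2, was at 283, 285 and 288 CPM in Ctrl and 336, 327 and 327 CPM in AclyM-KO. The increase was small but well outside the spread between libraries (0.21 ± 0.0443, adjusted p = 0.00271, edgeR). *Scap* (chr9:110333288-110384950), the escort protein of SREBP-2, was at 43.2, 41.8 and 40.3 CPM in Ctrl and 40.5, 38.7 and 44.0 CPM in AclyM-KO, with full overlap (-0.03, 95% interval -0.17 to 0.12, adjusted p = 0.807, edgeR).

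Of the 2 Insig genes, whose products retain the Scap complex in the endoplasmic reticulum, *Insig1* was called higher and *Insig2* was not called. *Insig1* (chr5:28071363-28078662), the isoform known as an SREBP target, was at 192, 181 and 199 CPM in Ctrl and 340, 348 and 356 CPM in AclyM-KO (log2 fold change 0.87 ± 0.0502, adjusted p = 1.88e-08, edgeR). *Insig2* (chr1:121304353-121332589) was at 42.1, 34.1 and 45.9 CPM in Ctrl and 34.3, 36.1 and 35.6 CPM in AclyM-KO (-0.21, 95% interval -0.40 to -0.02, adjusted p = 0.103, edgeR). Ctrl replicate 2 lay just below the AclyM-KO range of *Insig2* and the other Ctrl libraries above it, and without Ctrl replicate 2 the gene was called lower (-0.32, adjusted p = 0.00162, edgeR). The ratio of *Insig1* to *Insig2* counts was 4.57, 5.29 and 4.33 in Ctrl and 9.91, 9.65 and 10 in AclyM-KO. The groups were widely separated, and the exact two-sided permutation test again gave p = 0.10, the smallest possible here.

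**Figure D3:**
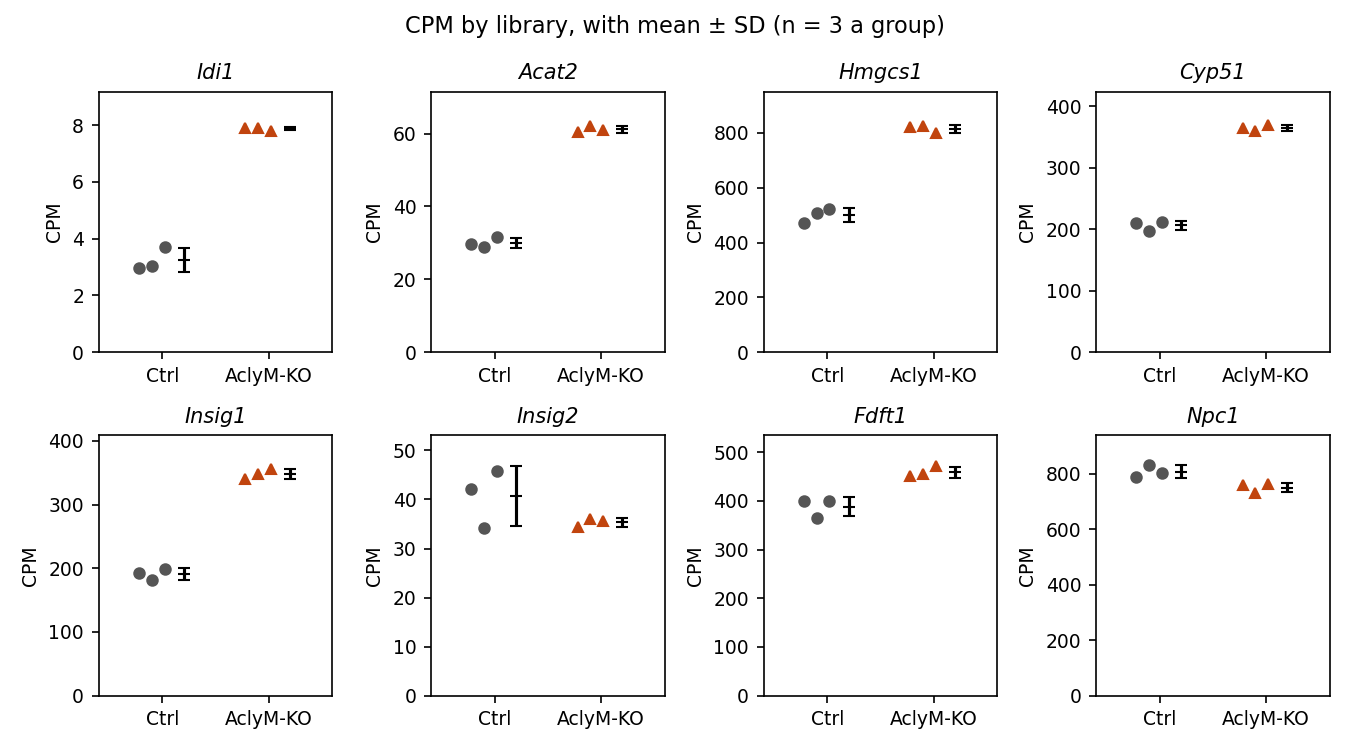
CPM (vertical axes, each from 0) of 8 genes in the 3 Ctrl libraries (circles) and the 3 AclyM-KO libraries (triangles), each beside its group mean ± SD (n = 3). *Idi1*, *Acat2*, *Hmgcs1*, *Cyp51* and *Insig1* are widely separated, the groups of *Fdft1* (higher) and of *Npc1* (not called) lie close together without overlap, and the Ctrl libraries of *Insig2* spread from 34.1 to 45.9 CPM around AclyM-KO values of 34.3 to 36.1 CPM.

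Of the 4 uptake and transport genes, *Stard4* alone was called, and the median log2 fold change was -0.01. *Stard4* on chromosome 18 encodes a soluble sterol carrier and was at 126, 117 and 139 CPM in Ctrl and 179, 176 and 172 CPM in AclyM-KO (0.46 ± 0.0594, adjusted p = 4.94e-05, edgeR). Lysosomal export of cholesterol is carried out by *Npc2* (chr12:84754562-84773152), which binds cholesterol in the lumen, and by the membrane protein *Npc1*, also on chromosome 18. *Npc2* was at 1480, 1280 and 1450 CPM in Ctrl and 1370, 1350 and 1420 CPM in AclyM-KO, with overlap (-0.03, 95% interval -0.13 to 0.08, adjusted p = 0.736, edgeR).

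*Npc1* was at 788, 832 and 802 CPM in Ctrl and 758, 731 and 761 CPM in AclyM-KO. It was the only member with every AclyM-KO library below every Ctrl library, as were 19.8% of tested genes, and it missed the threshold (log2 fold change -0.11, 95% interval -0.19 to -0.02, adjusted p = 0.0697, edgeR). *Tmem97* (chr11:78541817-78550777), which encodes a membrane protein that binds Npc1, was at 28.6, 27.2 and 28.8 CPM in Ctrl and 29.4, 28.5 and 27.2 CPM in AclyM-KO (0.01, 95% interval -0.15 to 0.16, adjusted p = 0.94, edgeR). For *Tmem97*, *Npc2* and *Scap* the intervals together span log2 fold changes of -0.17 to 0.16, so changes of this size could not be told from 0 with 3 libraries a group.

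Levels of different genes were compared per kilobase of transcript, and *Npc2* was the most abundant member in both groups. It stood at 426 ± 32 CPM per kilobase in Ctrl and *Npc1* at 155 ± 4.36, next to the most abundant enzymes *Hmgcs1* (154 ± 7.81), *Msmo1* (146 ± 8.77) and *Fdft1* (105 ± 5.35; SD, n = 3). *Npc1*, *Hmgcs1* and *Msmo1* did not differ beyond this spread in Ctrl. The values of *Npc1*, *Hmgcs1* and *Fdft1* can hold reads of genes on the other strand, with which they share exonic bases. In AclyM-KO, *Hmgcs1* reached 251 ± 4.41 and *Msmo1* 210 ± 5.99 CPM per kilobase, above *Npc1* at 144 ± 3.19. *Idi1* was the least abundant gene in both groups, with 1.07 ± 0.137 and 2.60 ± 0.0194 CPM per kilobase, followed by *Ggps1* with 5.24 ± 0.242 and 5.07 ± 0.544. The length used for *Ggps1* (4244 bases) was that of another transcript of the gene, as the counted row had no paired GENCODE transcript.

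The spread between libraries was small for most genes. The median coefficient of variation over the 28 genes was 5.08% in Ctrl and 2.71% in AclyM-KO, and the highest values were 14.8% for *Insig2* in Ctrl and 10.7% for *Ggps1* in AclyM-KO. Among the 20 synthesis genes, Ctrl replicate 2 had the lowest Ctrl value in 12 and Ctrl replicate 3 the highest in 11. Synthesis sums of Ctrl replicates 1, 2 and 3 were 2430, 2360 and 2510 CPM, against at least 3630 CPM in AclyM-KO.

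Some genes share exonic bases with genes on the other strand, and the counting did not separate strands: the antisense pair *Xist* and *Tsix* had 7864 counts each in Ctrl replicate 1. At least 10% of exonic bases were shared in 6 members, namely *Hmgcs1* (17.2%), *Idi1* (10.7%), *Fdft1* (20.9%), *Lbr* (12.5%), *Scap* (18.6%) and *Npc1* (11.5%). The partner of *Fdft1* is the cathepsin gene *Ctsb*, which had 21700 ± 1350 CPM in Ctrl and 23700 ± 362 CPM in AclyM-KO (log2 fold change 0.13, adjusted p = 0.012, edgeR). *Lss* shares 8.16% of its exonic bases with *4930483K19Rik*, which rose from 65.7 ± 4.38 to 113 ± 4.41 CPM (0.79, adjusted p = 1.78e-07, edgeR). *Fdps* shares 81.3% of its exonic bases with *Gm43738* on its own strand. The values of *Fdft1*, *Lss* and their partners on the other strand can therefore hold reads of either strand. Whether *4930483K19Rik* rose apart from *Lss* was not tested. Among the 22 genes with less than 10% overlap with the other strand, 18 were higher and 9 of these exceeded the fold limit. Overlap on the same strand was not considered in this count, so *Fdps* is among them.

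Genes next to the pathway were counted from 4 further lists. Of 11 genes for SREBP activation and sterol-regulated protein degradation, 4 were higher and 0 lower (median log2 fold change 0.13), beside 12.4% of all tested genes called higher and 12.6% called lower. The largest changes were those of *Vcp*, the ATPase that pulls proteins out of the endoplasmic reticulum (127 ± 5.11 against 166 ± 3.77 CPM, 0.38, adjusted p = 5.1e-05, edgeR), *Erlin1*, a scaffold of that degradation (0.24, adjusted p = 0.00554), and *Mbtps1*, the protease that makes the first cut in SREBP-2 (0.15, adjusted p = 0.0475). Of 8 tested genes for electron donors and helpers of the sterol enzymes, 4 were higher and 0 lower (median 0.20), beside the same shares of all tested genes. They included *Erg28*, which holds the demethylation complex together (35.6 ± 2.41 against 47 ± 1.09 CPM, 0.40, adjusted p = 4.12e-04, edgeR), and *Cyb5b*, a cytochrome that passes on electrons (262 ± 4.64 against 328 ± 14 CPM, 0.33, adjusted p = 1.43e-04, edgeR).

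No gene was called among 12 of the nonsterol isoprenoid branch, which makes ubiquinone, dolichol and the prenyl groups of proteins (edgeR, 12 not called, median log2 fold change 0.01, range -0.14 to 0.14), while 12.4% of all tested genes were called higher and 12.6% lower. *Ggps1* in the mevalonate list belongs to the same side of the farnesyl branch point. Of 11 genes for cholesterol transport and esterification, 0 were higher and 3 were lower (median -0.04), beside 12.4% and 12.6% of all tested genes. These were *Vldlr*, a lipoprotein receptor with few counts (1.35 ± 0.363 against 0.602 ± 0.0505 CPM, -1.17, adjusted p = 0.025, edgeR), *Gramd1b*, a carrier of cholesterol from the plasma membrane (94.2 ± 9.40 against 78.1 ± 1.22 CPM, -0.27, adjusted p = 0.0059, edgeR), and *Stard5*, a sterol carrier (43.4 ± 2.36 against 36.8 ± 0.808 CPM, -0.24, adjusted p = 0.0141, edgeR). *Stard4* of the sterol list and *Stard5* thus moved in opposite directions.

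**Figure D4:**
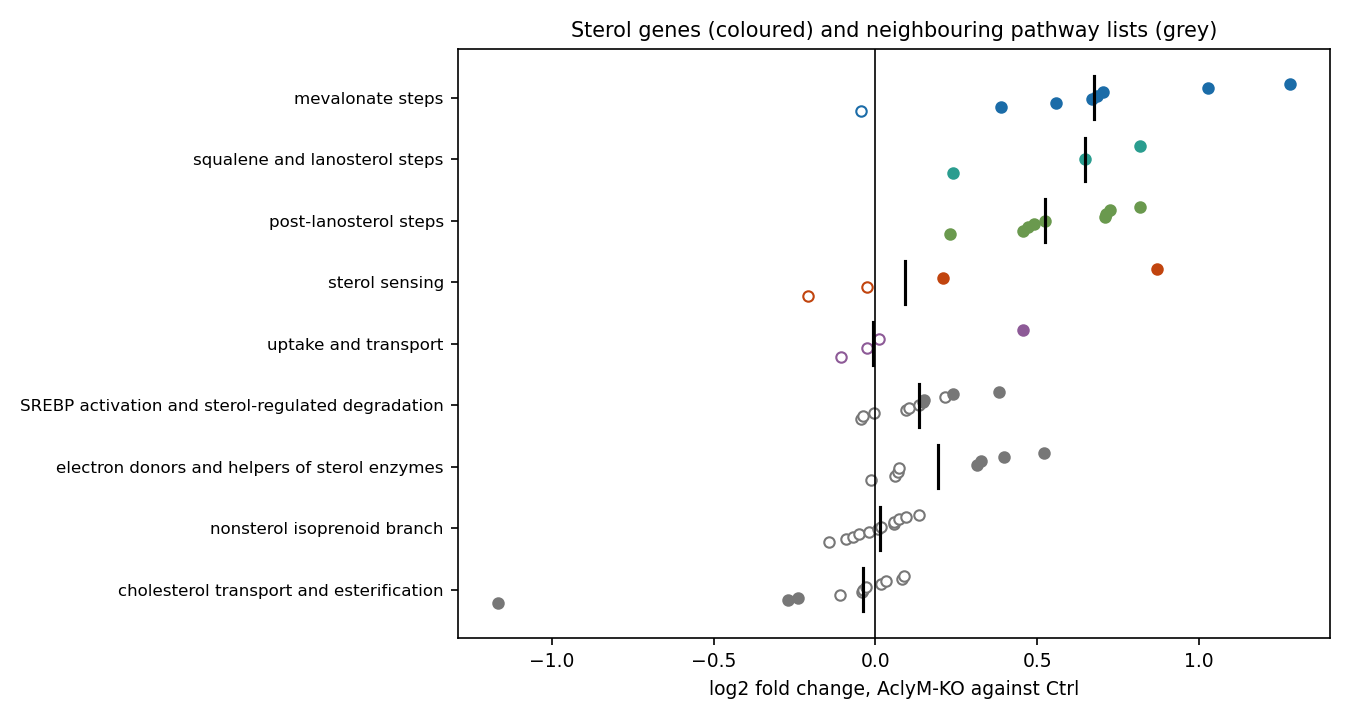
The log2 fold change of AclyM-KO against Ctrl (horizontal axis) for each gene of the 5 groups of sterol genes (coloured) and of 4 neighbouring lists (grey), with filled points for genes at an edgeR adjusted p under 0.05 and a black bar at each median. The medians of the 3 synthesis groups lie at 0.68, 0.65 and 0.53, and those of the other 6 groups between -0.04 and 0.20.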

How the data were processed

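The deposited table holds unnormalized read counts per RefSeq transcript from 3 Ctrl and 3 AclyM-KO libraries of IL-4-treated BMDMs. The authors made strand-specific mRNA libraries, and the submitters' processing notes name CASAVA 1.8.2, STAR 2.5.2b and mm10. The counting program is not given in the sources used here.

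Of 35745 rows, 35440 were named through RefSeq and 188 through GENCODE M21. The 117 others, with 0.37% to 1.38% of counts, were left out. The highest-total row was kept for each of 24445 genes, since the planned test assumed counts per gene. R 4.3.3 with edgeR 4.0.16 was used for the quasi-likelihood test of genotype, after filterByExpr and TMM scaling, with Benjamini-Hochberg adjustment over all 12023 genes. The common coefficient of biological variation came to 0.0588. Printed CPM are TMM-scaled. Positions are those of genes in GENCODE M21 on GRCm38. The procedure was tested on simulated data.

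The members and lists were chosen with earlier results of these data known. Text names all 28 members, *Acly* and, per neighbouring list, at most 3 called genes with the largest changes. A result for 1 gene that this rule names is not reported here. Marker and overlapping genes were named after their values were seen. Alternatives were DESeq2 1.42.0, limma-voom (limma 3.58.1), other scalings and filters, other row choices, thinning, a replicate block, a test against the fold limit and removal of each library. Exact permutation tests on count ratios are two-sided.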

Additional observations from a re-analysis of the deposited data

How the results depend on the processing

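Of the 22 genes called higher, all but *Ebp* passed in each of 17 settings, and 461 of 476 member values kept their direction and side of the threshold. The count of genes called lower rose from 0 to 1 with library totals only, with limma-voom and without a filter on low counts, and ranged from 0 to 2 when single libraries were left out (1 without Ctrl replicate 1, 2 without Ctrl replicate 2). The genes were *Npc1* (-0.13 with library totals, -0.11 with limma-voom, -0.13 without Ctrl replicate 1), *Insig2* (-0.21 without a filter, -0.32 without Ctrl replicate 2) and *Npc2* (-0.092 without Ctrl replicate 2). Tested against the fold limit itself, 5 genes passed in place of 12. The median log2 fold change of synthesis genes was 0.62 to 0.68 over the left-out libraries. Among genes with under 10% overlap with the other strand, a setting added after the data were seen, it was 0.60. The median of sensing, uptake and transport genes was 0.11 in this setting. It left out *Scap* (-0.03) and *Npc1* (-0.11), both below 0 and not called. Values near 0 changed sign, namely *Tmem97* (-0.009 with library totals, -0.001 after thinning to the smallest total, -0.020 to 0.038 over left-out libraries), *Npc2* (-0.092 to 0.012), *Ggps1* (-0.126 to 0.027) and *Scap* (-0.080 to 0.015). *Ebp* lost its call without AclyM-KO replicate 2 (0.19) or Ctrl replicate 3 (0.18). The causes were not tested.

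Replicate numbers did not pair the libraries (correlations of -0.07, 0.05 and -0.03 for same-numbered pairs). With the replicate block, 22 genes were higher, 12 passed the fold limit and the synthesis median was 0.66, while 1315 genes in all were called higher and 1329 lower in place of 1485 and 1511. *Idi1* had the fewest counts, 37 to 123 a library, which limits the precision of its value.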
